A study of Mus musculus with 22 samples.

Results

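Chondroitin sulfate and dermatan sulfate carry their sulfate groups through a small set of Golgi enzymes, and the transcripts of 9 of them are described here in mouse spinal cord before and after crush injury. The members were taken by gene symbol from the deposited count tables of all 22 libraries, as 9 rows of 24060: the 4-O-sulfotransferases Chst11, Chst12 and Chst13, the 6-O-sulfotransferases Chst3 and Chst7, the dermatan 4-O-sulfotransferase Chst14, the 4-sulfated-GalNAc 6-O-sulfotransferase Chst15, the uronyl 2-O-sulfotransferase Ust and the epimerase Dse. All animals were young adult female mice with the mGFAP-Cre-RiboTag alleles, so a mouse Gfap promoter drove the Cre that put a hemagglutinin (HA) tag on ribosomes, and any cell with a history of that promoter's activity could carry the tag. The uninjured group was wild type (WT, 4 mice), the WT SCI group was wild type with a severe spinal cord injury by crush at thoracic level 10 (4 mice), and the STAT3-CKO SCI group had the same injury and also carried STAT3-LoxP alleles, labelled STAT3 KO (3 mice). Injured cord was taken from the central 3 mm of the lesion at day 14. Each of the 11 mice gave an HA immunoprecipitate (HA IP, the ribosome-bound RNA of tagged cells) and the unbound flow-through of the same homogenate. The labels number the samples by animal, so replicates are separate animals. Uninjured animals of the STAT3-CKO line were not analysed here.

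Chondroitin sulfate is a chain of alternating glucuronic acid and N-acetylgalactosamine (GalNAc) carried on core proteins such as the brain lecticans, and the positions of its sulfates decide which proteins bind it. Chst11, Chst12 and Chst13 sulfate the hydroxyl of GalNAc known as 4-O and Chst3 and Chst7 the one known as 6-O, while Chst15 adds the 6-O-sulfate to GalNAc that already holds the 4-O one. Dse turns glucuronic into iduronic acid, which makes the chain dermatan sulfate, on which Chst14 sulfates the neighbouring GalNAc, and Ust sulfates the uronic acid itself. In injured spinal cord, chondroitin sulfate proteoglycans gather in and around the astrocyte scar and are known for holding back growing axons.

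The 250 bases before the RefSeq transcription start (GRCm38.p6) are shown for Ust, Chst3 and Chst14, the sulfotransferases that differed between injured and uninjured HA IP below. They are written 5′ to 3′ on the gene's strand, and capitals mark GGGCGG on either strand (CCGCCC is its reverse complement), the core of the GC box known to bind Sp1-family factors. Ust lies at chr10:8518826-8519075 (minus strand), Chst3 at chr10:60219261-60219510 (minus strand) and Chst14 at chr2:118926247-118926496 (plus strand).
Ust: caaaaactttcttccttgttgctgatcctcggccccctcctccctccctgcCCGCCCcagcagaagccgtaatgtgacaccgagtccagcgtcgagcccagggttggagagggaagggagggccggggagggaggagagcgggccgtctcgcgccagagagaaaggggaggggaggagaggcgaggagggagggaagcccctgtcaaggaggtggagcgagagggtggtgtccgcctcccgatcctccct
Chst3: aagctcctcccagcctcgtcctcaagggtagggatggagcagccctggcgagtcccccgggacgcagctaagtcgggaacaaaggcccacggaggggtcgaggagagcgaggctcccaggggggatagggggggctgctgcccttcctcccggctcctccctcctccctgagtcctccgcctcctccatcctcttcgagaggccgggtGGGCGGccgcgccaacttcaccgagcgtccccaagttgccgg
Chst14: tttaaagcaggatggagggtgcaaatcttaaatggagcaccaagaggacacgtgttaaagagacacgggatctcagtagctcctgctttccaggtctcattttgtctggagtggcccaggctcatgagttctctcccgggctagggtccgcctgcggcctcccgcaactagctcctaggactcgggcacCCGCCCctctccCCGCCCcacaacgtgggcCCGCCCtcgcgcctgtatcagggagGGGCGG
GGGCGG stood once in the Ust window, 199 bases before the start, once in the Chst3 window at 42 bases, and 4 times in the Chst14 window at 61, 49, 31 and 6 bases. All 9 genes matched the RefSeq table, with 10 windows because Chst15 has 2 overlapping ones, and every window held the motif, against 32.7% of 32807 promoters of the same length. The STAT-type palindrome TTCNNNGAA, the same palindrome with 4 N in its middle and the letters TATAAA were searched on both strands and stood in none of the 10 windows, against 7.02%, 5.85% and 12.4% of all promoters. GC content of the windows ran from 52.8% to 74.4%, with a median of 52.4% over all promoters. These letter matches describe the windows only.

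Depth set how well the members could be seen. HA IP libraries held 31292491 to 59337089 counts and flow-through libraries 3898755 to 11242654, but the ribosomal precursor row Rn45s took 9.49% to 39.7% of an uninjured library and 50.0% to 96.2% of an injured one. Outside the rows Rn45s, Lars2 and Mir6236, uninjured HA IP kept at least 26934866 counts, WT SCI HA IP 620265 to 2691494 and STAT3-CKO SCI HA IP 2496641 to 17348247. The shallowest flow-through, that of WT SCI animal 9935, kept 91626. The Rn45s share separates injured from uninjured libraries, so it and injury cannot be told apart. Levels are given as CPM, read counts divided by a library size that TMM (edgeR's trimmed mean of M-values) scales within one fit, so a CPM is comparable only among the libraries of that fit. HA IP held 7.85 to 12.3 CPM of Stat3, the targeted gene, in the STAT3-CKO animals, 26.3 to 66.1 in injured and 12.2 to 15.5 in uninjured wild type, and the gene was lower in STAT3-CKO SCI than in WT SCI (log2 −2.17 ± 0.34 SE, edgeR adjusted p = 0.00331). Which exons the LoxP sites flank is not stated in these sources, and reads of kept exons still count.

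In uninjured HA IP the 4-O-sulfotransferases led the family. Per kilobase of exon (summed exon length of the GENCODE vM21 model, GRCm38), the level of Chst11 (chromosome 10, 82985498 to 83195900, plus strand) was 1.70 ± 0.25 CPM per kb (SD, n = 4), that of Chst12 (chromosome 5, 140505550 to 140525724, plus strand) 1.13 ± 0.21 and that of Ust (chromosome 10, 8204756 to 8518825, minus strand) 0.556 ± 0.130. These 3 kept this order in all 4 animals and their ranges did not overlap. Chst3 (chromosome 10, 60181532 to 60219260, minus strand), which followed at 0.248 ± 0.082 CPM per kb, Chst14 (chromosome 2, 118926496 to 118928585, plus strand) at 0.218 ± 0.078 and Chst15 (chromosome 7, 132235780 to 132317228, minus strand) at 0.160 ± 0.044 were neighbours whose ranges overlapped. Chst7 (chromosome X, 20059560 to 20097521, plus strand) stood at 0.0705 ± 0.0451 CPM per kb and Dse (chromosome 10, 34151393 to 34207715, minus strand) at 0.0325 ± 0.0035, again with overlapping ranges. Chst13 (chromosome 6, 90308349 to 90325185, minus strand) had 0 counts in 20 of 22 libraries; in uninjured HA IP 3 counts correspond to 0.00888 to 0.0184 CPM, which is the limit on its level there. The other 7 counts of Chst13 all came from STAT3-CKO animal 270, 6 in HA IP and 1 in flow-through.

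The order was different and looser after injury. In WT SCI HA IP the means ran from Chst12 (3.22 ± 4.19 CPM per kb, n = 4) through Ust (2.62 ± 1.26), Chst11 (2.23 ± 0.64) and Chst3 (1.60 ± 2.16) down to Chst14 (0.592 ± 0.496), and no pair of neighbours had separate ranges. In STAT3-CKO SCI HA IP Ust was first at 2.97 ± 1.11 CPM per kb (n = 3), then Chst11 (2.43 ± 0.11), Chst14 (2.13 ± 1.97), Chst3 (1.11 ± 0.08) and Chst12 (1.08 ± 0.44), all 5 with overlapping ranges between neighbours and all above the range of Chst15. In flow-through, Chst12 had the highest mean in each condition, at 1.92 ± 1.07, 2.01 ± 2.03 and 2.19 ± 0.31 CPM per kb in uninjured, WT SCI and STAT3-CKO SCI, and its range was separate from that of the next gene only in the last. Reads of Chst15 may be uncertain. The spans, introns included, of an Fgfr2 model of the same strand and of the antisense gene Gm10584 overlap its exons. Whether exons of the 2 genes overlap those of Chst15 was not checked, and no strand setting is given for the counting.

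**Figure D1:**
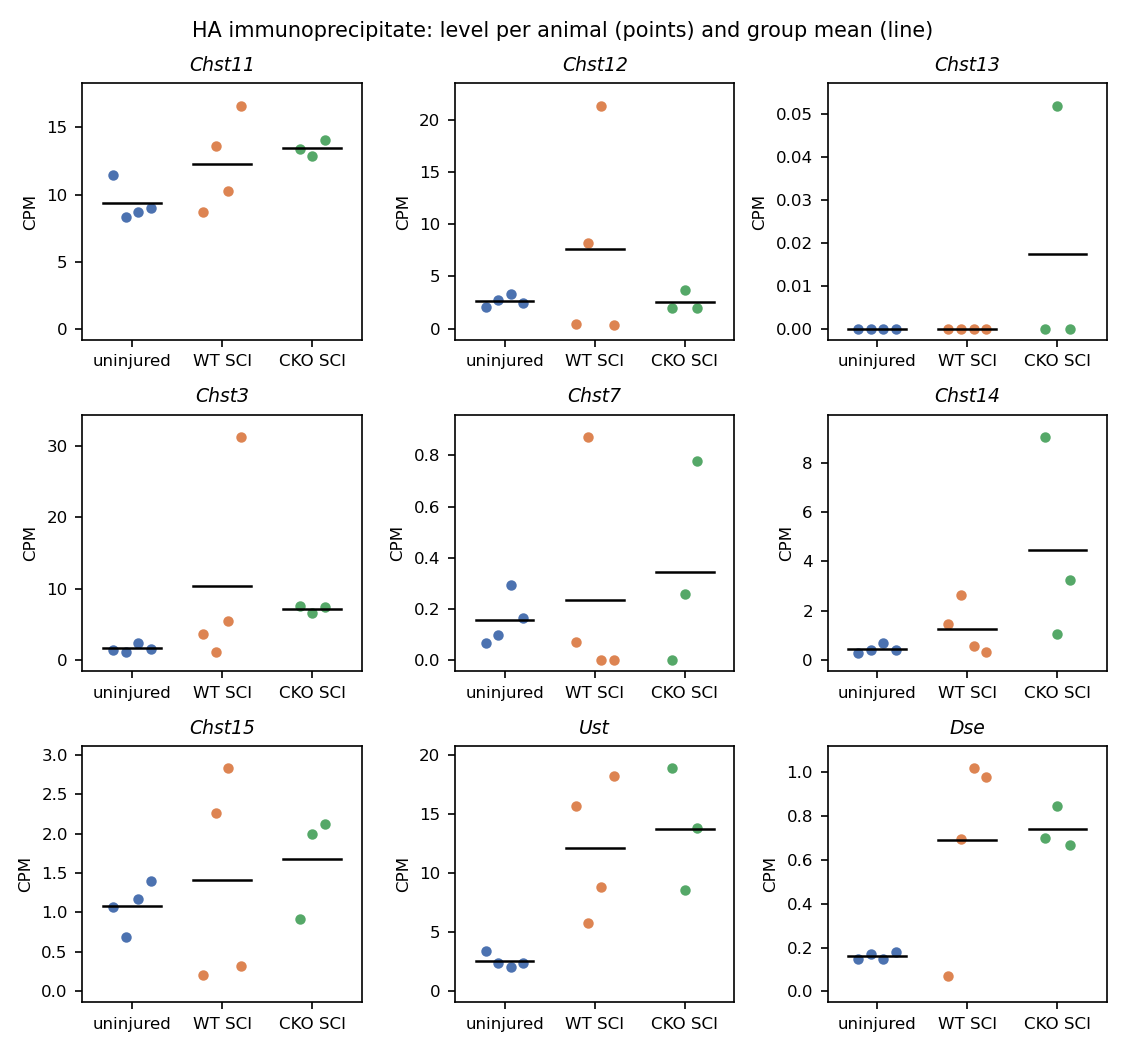
Levels of the 9 genes in the HA immunoprecipitate, in CPM (scaled over the 11 HA IP libraries; each panel has its own axis), with 1 point per animal and a line at the group mean; CKO SCI stands for STAT3-CKO SCI. All Ust points of injured animals (5.75 to 18.9 CPM) lie above all uninjured ones (2.02 to 3.43), and the WT SCI mean of Chst3 is carried by 1 animal at 31.3.

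Ust and Chst3 were higher in HA IP of injured WT cord than of uninjured cord. Ust sulfates the uronic acid and Chst3 the 6-O position of GalNAc. The other 6 members tested did not pass, among them Chst7 and Chst15, which also place 6-O-sulfates, and Chst13 was not tested. In this comparison 26.7% of the 14764 genes tested were called (edgeR quasi-likelihood test, Benjamini-Hochberg adjusted p under 0.05 over all genes) and 15.8% were called higher. The members' median difference was 1.51 (log2) over 8 genes, and that of all genes tested 0.00.

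Ust stood at 3.43, 2.02, 2.42 and 2.40 CPM in uninjured animals 42, 79, 65 and 154 and at 18.2, 8.82, 5.75 and 15.6 in WT SCI animals 9935, 9874, 9843 and 9596. Every injured library was above every uninjured one. The group means were 12.1 ± 5.8 (SD, n = 4) and 2.57 ± 0.60 CPM (n = 4), a 4.68-fold difference (log2 2.23 ± 0.41 SE, 95% interval 1.37 to 3.09, edgeR adjusted p = 0.000579). In bulk RNA like this, a changed number of cells of one type and a changed amount of RNA per cell cannot be told apart.

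Other things moved with injury in the same libraries. Of the marker lists, 7 of 8 microglia and macrophage genes were higher (summed level 9.36 to 22.5 CPM in uninjured, 484 to 1938 in WT SCI), as were 6 of 6 oligodendrocyte precursor genes (158 to 275 and 483 to 658) and 6 of 6 myelin genes (1322 to 1746 and 5614 to 8339). Fibroblast and pericyte genes were higher for 3 of 6 tested (8.53 to 12.7 and 10.7 to 61.6 CPM, Rgs5 at 0 in all WT SCI libraries), neuronal genes were lower for 4 of 6 (333 to 614 and 53.3 to 133), and of 8 astrocyte genes 1 was higher and 5 lower. Endothelial markers were near 0 (sum 0.0209 to 0.186 and 0 to 1.30 CPM), with Cldn5, Pecam1, Cdh5 and Tie1 at 0 in all WT SCI libraries. The part of these cells in the members' differences was not tested.

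Chst3 stood at 1.41, 2.38, 1.16 and 1.50 CPM in the uninjured animals and at 31.3, 5.43, 1.05 and 3.70 CPM in WT SCI animals 9935, 9874, 9843 and 9596. Animal 9935 stood far above the other 3, animal 9843 was below every uninjured animal, and the groups overlapped. The difference was 6.15-fold (log2 2.62 ± 0.69, edgeR adjusted p = 0.00883), and without animal 9935 it was 1.10 with an edgeR adjusted p of 0.102. That library is the shallowest HA IP library, with an Rn45s share of 96.2%, and its Chst3 level rests on 96 counts.

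The members that did not pass the test were spread widely among injured animals. Chst12 read 0.326, 21.4, 8.20 and 0.480 CPM in WT SCI animals 9935, 9874, 9843 and 9596, from 1, 189, 47 and 7 counts, against 2.09 to 3.29 in uninjured animals. So 2 injured animals were above and 2 below the whole uninjured range, and the difference of 1.54 had an interval of −0.09 to 3.17 (edgeR adjusted p = 0.148). Chst11 differed by 0.38 (interval −0.27 to 1.02). The dermatan genes Dse (difference 2.00, interval 0.28 to 3.72, edgeR adjusted p = 0.0779) and Chst14 (1.48, −0.05 to 3.01, 0.137) rested on 17 and 42 counts over the 4 WT SCI libraries. For Dse, animals 9935, 9874 and 9843 stood at 0.978, 1.02 and 0.697 CPM, above the uninjured range of 0.146 to 0.181, and animal 9596 below it at 0.0686 from 1 count. DESeq2 called Dse (1.97, adjusted p = 0.0149). Chst15 differed by 0.40 (−1.13 to 1.93) and Chst7 by 0.50 (−2.06 to 3.06).

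Injured cord of STAT3-CKO animals also held more Ust in HA IP than uninjured cord, and more Chst14. In this comparison 9.78% of 14764 genes were called and 7.70% were called higher. It shares its uninjured libraries with the comparison above. Of 8 members tested, 2 passed, and the members' median difference was 1.69 (log2) against 0.00 for all genes.

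Ust stood at 18.9, 13.8 and 8.56 CPM in STAT3-CKO animals 186, 531 and 270, all above the uninjured range of 2.02 to 3.43. The difference was 5.32-fold (log2 2.41 ± 0.43, edgeR adjusted p = 0.000765). The Rn45s share of these 3 libraries was 89.2%, 80.0% and 52.2%, in the same order as their Ust levels. In WT SCI animals 9935, 9874, 9843 and 9596 the share was 96.2%, 93.6%, 93.9% and 89.0%, and there the Ust levels did not follow that order. The part of this share in the difference was not tested.

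Chst14, the sulfotransferase of dermatan sulfate, stood at 9.04, 3.24 and 1.06 CPM in the same 3 animals and at 0.296 to 0.683 in uninjured animals. The groups did not overlap, although animal 270 was close to the uninjured range. These levels rest on 129, 121 and 123 counts in animals 186, 531 and 270 and on 100, 131, 69 and 121 in uninjured animals 42, 79, 65 and 154. Counts outside the ribosomal rows were 2496641, 6375510 and 17348247 in those STAT3-CKO libraries and at least 26934866 in uninjured ones. So on similar counts the order of the levels follows library size, and the part of depth in the difference was not tested. The difference was 9.63-fold (log2 3.27 ± 0.76, interval 1.69 to 4.85, edgeR adjusted p = 0.00774), and without animal 186 it was 2.22 with an edgeR adjusted p of 0.107. The order of these 3 animals was again that of their Rn45s shares, while in WT SCI the lowest Chst14 level, 0.326 CPM from 1 count, stood in the library with the highest share.

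Chst3 and Dse missed the threshold here although their groups were separate. Chst3 stood at 7.57, 7.45 and 6.59 CPM in the STAT3-CKO animals, within a narrow band and above the uninjured maximum of 2.38. Its difference of 2.16 ± 0.70 had an edgeR adjusted p of 0.0568, and it passed with DESeq2 (2.10, adjusted p = 0.0405), with no filter on low counts (2.12, edgeR adjusted p = 0.0300) and with only these groups in the fit (2.16, edgeR adjusted p = 0.000359). Chst3 did not pass in the other 3 of 6 such settings or in 7 of 11 fits that left out 1 animal (edgeR adjusted p up to 0.151). Dse stood at 0.701, 0.670 and 0.847 CPM against at most 0.181 in uninjured animals. Its difference was 2.19 ± 0.80 (edgeR adjusted p = 0.0946), and it passed with DESeq2 (2.14, adjusted p = 0.0107) and with only these groups in the fit (2.20, edgeR adjusted p = 0.0113). Dse did not pass in the other 3 of 5 settings or in 10 of 11 fits that left out 1 animal (edgeR adjusted p up to 0.258). Chst11 was also separate between groups, at 12.8 to 14.1 against 8.33 to 11.4 CPM, with a difference of 0.52 (interval −0.16 to 1.19). Chst12 differed by −0.05 (−1.77 to 1.67), Chst15 by 0.64 (−0.91 to 2.20) and Chst7 by 1.21 (−1.02 to 3.44).

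Microglia and macrophage genes were higher in this comparison for 7 of 8 (summed level 629 to 874 CPM in STAT3-CKO SCI), oligodendrocyte precursor genes for 5 of 6 (412 to 680), myelin genes for 5 of 6 (3363 to 3983), fibroblast and pericyte genes for 3 of 6 tested (16.7 to 33.6) and Schwann cell genes for 2 of 4 (51.9 to 65.2, against 36.7 to 52.3 in uninjured). Of 8 astrocyte genes 3 were lower. Their part in the members' differences was not tested.

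Between the 2 injured groups no member was called in HA IP by edgeR or DESeq2. Here 1.16% of 14764 genes were called. Chst14 was the only 1 of 8 members tested with an unadjusted p under 0.05, at a difference of 1.79 ± 0.77 (edgeR adjusted p = 0.257) and with overlapping groups, since WT SCI animals stood at 0.326 to 2.62 CPM. Ust differed by 0.19, with an interval of −0.71 to 1.08, and Chst11 by 0.14 (−0.55 to 0.84). Chst3 (−0.46, −1.96 to 1.03) and Chst12 (−1.59, −3.40 to 0.23) had wider intervals. A likeness of the genotypes is not shown by these intervals, and depth differed between the groups too.

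**Figure D2:**
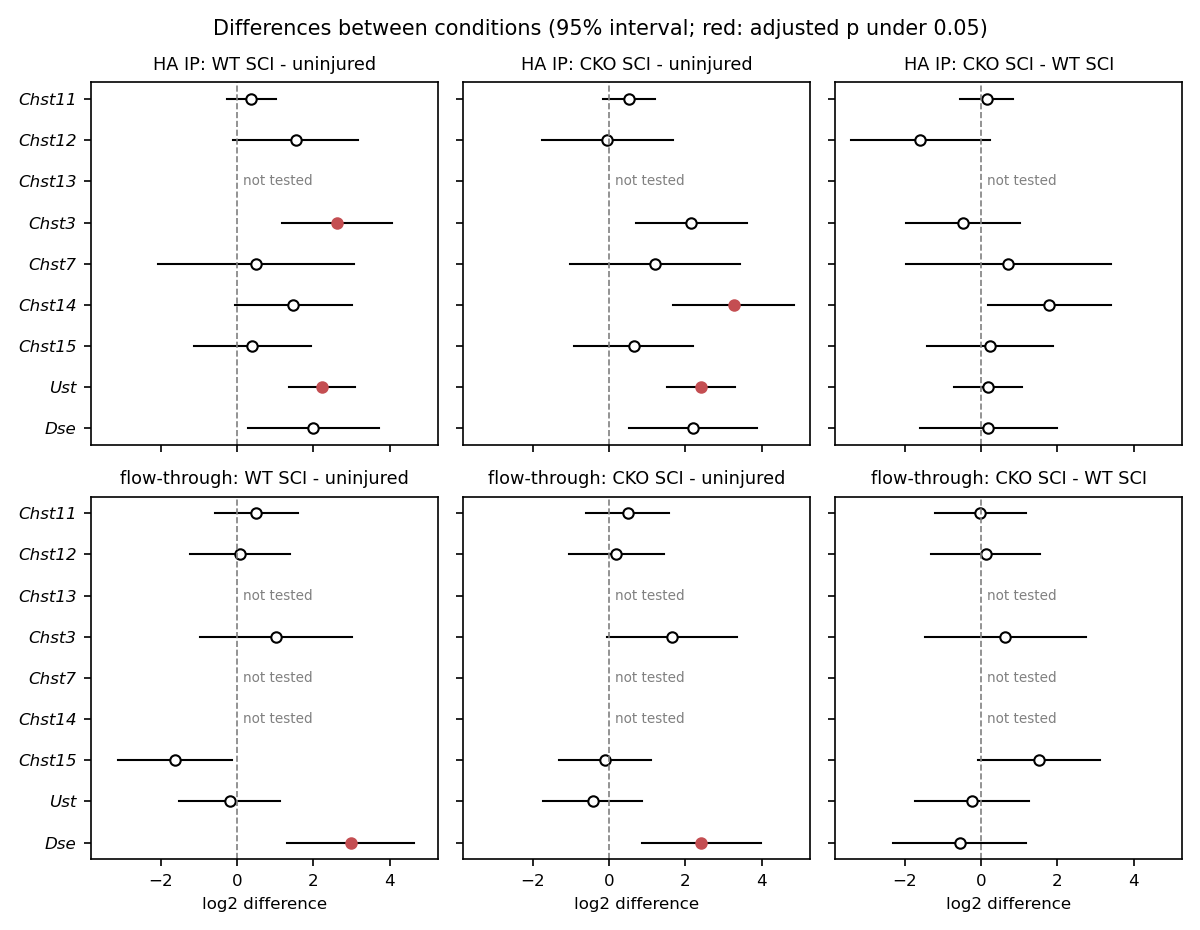
Log2 differences between conditions for the 9 genes (horizontal axis), with HA IP in the upper and flow-through in the lower panels. Points are edgeR estimates, lines 95% intervals and red points edgeR adjusted p under 0.05; Ust is red in both HA IP comparisons with uninjured cord and Dse in both flow-through ones.

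In the flow-through, the RNA not bound to tagged ribosomes, the dermatan epimerase Dse was the member called higher after injury in both groups, on few counts and not in every fit that left out 1 animal. In WT SCI 31.0% of 12685 genes were called and 16.7% were called higher. Of 6 members that passed the filter on low counts, Dse was called and 5 were not. The members' median difference was 0.29 against −0.09 for all genes.

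Dse stood at 0.318, 0.563, 0.280 and 0.521 CPM in uninjured animals 42, 79, 65 and 154 and at 5.91, 6.19, 2.95 and 0.341 CPM in WT SCI animals 9935, 9874, 9843 and 9596. Of the injured libraries 3 were above all uninjured ones, and that of animal 9596 lay among them. These WT SCI values rest on 3, 8, 4 and 1 counts. The difference was 7.89-fold (log2 2.98 ± 0.81, edgeR adjusted p = 0.00609), and without animal 9874 it was 2.41 with an edgeR adjusted p of 0.0557. In STAT3-CKO SCI flow-through Dse stood at 3.35, 1.46 and 2.19 CPM in animals 186, 531 and 270, from 8, 5 and 49 counts, all above the uninjured range.
The STAT3-CKO difference from uninjured was 5.34-fold (log2 2.42 ± 0.76, edgeR adjusted p = 0.0312). This was the only call among 6 members tested, in a comparison that called 13.9% of 12685 genes and 10.4% higher, in a fit that shares its uninjured libraries with the WT one. Leaving out any 1 of the 4 uninjured or 3 STAT3-CKO animals ended this call (2.12 to 2.63, edgeR adjusted p of 0.0504 to 0.124).

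Chst14 did not pass the filter on low counts in flow-through. It read 0.0318, 0.130, 0.392 and 0.200 CPM in uninjured animals 42, 79, 65 and 154, 1.97, 2.32, 0.738 and 2.38 in WT SCI animals 9935, 9874, 9843 and 9596, and 2.09, 2.34 and 1.83 in STAT3-CKO animals 186, 531 and 270. Every injured library was above every uninjured one, although the WT SCI values rest on 1, 3, 1 and 7 counts. In animals 9935 and 9843 1 count gave 1.97 and 0.738 CPM, above the uninjured maximum of 0.392. Any count of Chst14 puts these shallow libraries above the uninjured range, so their place in the order carries little weight. With no filter the differences from uninjured were 3.28 ± 1.01 (edgeR adjusted p = 0.0082) in WT SCI and 3.44 ± 0.95 (edgeR adjusted p = 0.00485) in STAT3-CKO SCI. Without STAT3-CKO animal 186 it passed the filter, with 3.36 in WT SCI and 3.49 in STAT3-CKO SCI. The filter asks for as many libraries as the smallest group holds, and only the remaining STAT3-CKO libraries met it. So Chst14 entered that fit through libraries where it is high, and the fit adds no support.

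Chst15 read 1.97, 3.10, 0 and 1.02 CPM in WT SCI flow-through of animals 9935, 9874, 9843 and 9596, from 1, 4, 0 and 3 counts, against 3.40 to 5.03 in uninjured animals. The readings did not overlap, but in animal 9935 3 counts correspond to 5.91 CPM, above the whole uninjured range, so a lower level was not detectable in that library. Its difference of −1.62 ± 0.73 did not pass with edgeR (adjusted p = 0.0934) and passed with DESeq2 (−1.76, adjusted p = 0.0319). In STAT3-CKO SCI it read 5.02, 1.46 and 5.09 CPM, and the difference from uninjured was −0.10 (interval −1.30 to 1.10). Chst7 had 0 counts in all 4 WT SCI flow-through libraries, where 3 counts correspond to 1.02 to 5.91 CPM, far above its uninjured level of 0 to 0.217 CPM, so a change was not detectable at this depth.

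Chst11, Chst12 and Ust, the 3 members with the highest mean per kb in uninjured flow-through, showed no called injury difference there. In WT SCI and STAT3-CKO SCI the differences from uninjured were 0.51 (interval −0.59 to 1.60) and 0.49 (−0.59 to 1.57) for Chst11, 0.07 (−1.24 to 1.38) and 0.19 (−1.05 to 1.43) for Chst12, and −0.20 (−1.53 to 1.14) and −0.43 (−1.73 to 0.88) for Ust. Chst3, at 0.224 to 0.938 CPM in uninjured flow-through, differed by 1.03 (−0.96 to 3.01) in WT SCI, on 7 counts, and by 1.66 (−0.04 to 3.36, edgeR adjusted p = 0.207) in STAT3-CKO SCI. Ust in uninjured flow-through ranged from 2.69 to 3.65 CPM in animals 65, 79 and 154, with animal 42 far above at 10.4. Between the injured groups 0.118% of 12685 genes were called and no member (by edgeR, with 0 at an unadjusted p under 0.05, or by DESeq2), with Chst15 nearest (1.51 ± 0.78, edgeR adjusted p = 0.408).

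Marker genes of several cell types moved with injury in flow-through too. Microglia and macrophage genes were higher for 7 of 8 (32.6 to 60.8 CPM summed in uninjured, 2322 to 7447 in WT SCI, 2470 to 3655 in STAT3-CKO SCI) and fibroblast and pericyte genes for 5 of 6 tested in both injured groups. Neuronal genes were lower for 6 of 6 in WT SCI and 2 of 6 in STAT3-CKO SCI. The part of these cells in the Dse and Chst14 levels was not tested.

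**Figure D3:**
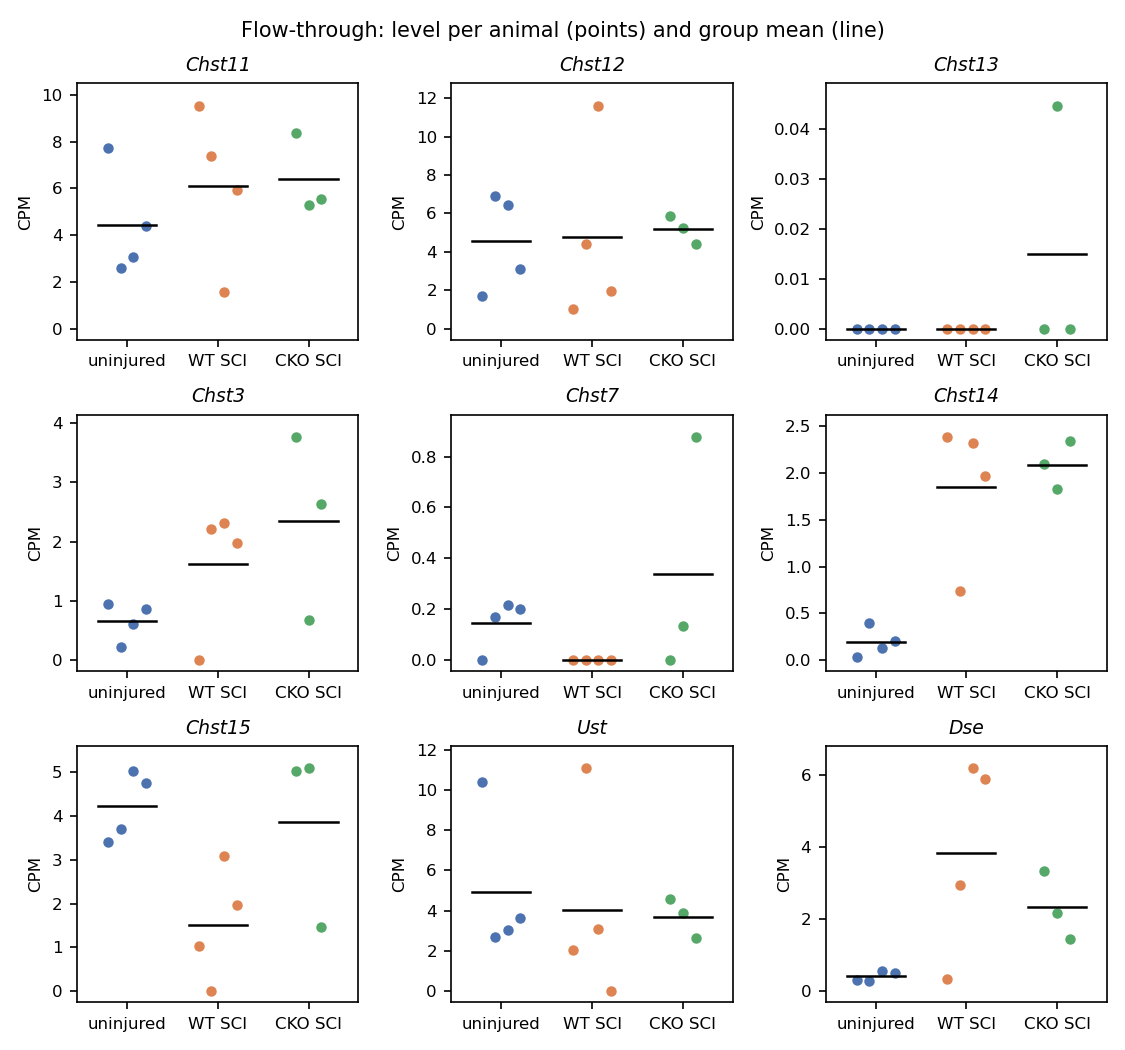
Levels of the 9 genes in the flow-through, in CPM (scaled over the 11 flow-through libraries; each panel has its own axis), with 1 point per animal and a line at the group mean. Chst14 and Dse points of injured animals lie above the uninjured ones except for 1 WT SCI animal in Dse (0.341), and 1 uninjured animal stands at 10.4 in Ust.

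Which of the 2 fractions of a cord held more of a transcript differed between members. In uninjured cord Chst3, Chst11 and Chst14 were higher in HA IP and Chst15 was higher in flow-through, in a comparison that called 50.7% of 14312 genes, 26.4% higher in HA IP and 24.2% lower. The 8 members tested had a median difference of −0.02, and all genes 0.02. All 8 astrocyte markers were higher in HA IP, and 6 of 8 microglia, 6 of 6 myelin and 6 of 6 neuronal markers were lower. On the scale of this fit, Chst11 read 60.7, 44.0, 42.3 and 47.0 CPM in HA IP and 33.8, 13.1, 10.9 and 19.0 CPM in flow-through of animals 42, 79, 65 and 154. All HA IP libraries were above all flow-through libraries (log2 1.30 ± 0.31, edgeR adjusted p = 0.00485).

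Chst3 was 2.77-fold higher in uninjured HA IP (8.30 ± 2.60 against 2.84 ± 1.42 CPM, SD, n = 4 each, log2 1.47 ± 0.40, edgeR adjusted p = 0.0095), and the groups did not overlap. Without animal 79 its edgeR adjusted p was 0.0769. Chst14 was 3.20-fold higher (2.34 ± 0.79 against 0.807 ± 0.646 CPM, edgeR adjusted p = 0.0489) with overlapping groups, and this call was lost with another scaling, with no filter, without the ribosomal rows and without animal 79 or 154 (edgeR adjusted p up to 0.225). Chst15 stood at 5.68, 5.92, 3.48 and 7.33 CPM in HA IP and 14.9, 21.4, 15.7 and 20.6 in flow-through of animals 42, 79, 65 and 154. It was thus lower in HA IP in every animal, 3.23-fold on average (log2 −1.69 ± 0.26, edgeR adjusted p = 0.000291), and the groups were separate.

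Dse was below its flow-through level in the HA IP of all 11 animals, and 11 of 11 showed the opposite for Chst11. In WT SCI animals 9935, 9874, 9843 and 9596 the order for Dse rests on 3, 9, 4 and 1 counts in HA IP against 3, 8, 4 and 1 in flow-through, so on nearly equal counts the order follows library size, and Dse did not pass the filter in that comparison. The uninjured difference of Dse was −1.12 ± 0.44 (0.835 ± 0.094 against 1.81 ± 0.61 CPM, edgeR adjusted p = 0.0545), with groups that did not overlap. With the animal as a block it was −1.08 and passed (edgeR adjusted p = 0.0428). Chst12 differed by −0.48 (interval −1.30 to 0.35) and Ust by −0.71 (−1.61 to 0.19) in uninjured cord.

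In STAT3-CKO SCI cord Ust, Chst3 and Chst11 were higher in HA IP than in flow-through, although no call held without animal 531. In this comparison, where 11.8% of 12659 genes were called and 7.12% higher in HA IP, Ust read 21.5, 15.7 and 10.0 CPM in HA IP and 4.35, 2.46 and 3.72 CPM in flow-through of animals 186, 531 and 270. Each HA IP library was above each flow-through library, a 4.47-fold difference (log2 2.16 ± 0.44, edgeR adjusted p = 0.00345). Chst3 was 4.37-fold higher (2.13 ± 0.61, edgeR adjusted p = 0.0292) and Chst11 2.61-fold (1.38 ± 0.38, edgeR adjusted p = 0.0233), both with separate groups. Without animal 531 Ust differed by 2.05 (edgeR adjusted p = 0.0794), and with animal 270 left out only the call of Ust held.

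In WT SCI only 4 members passed the filter, and none was called by edgeR, beside 6.25% of 8466 genes. At an unadjusted p under 0.05 2 of them passed, Chst3 and Ust, and DESeq2 called Chst3. Chst11 differed by 1.17 ± 0.63 with separate groups (1.83 to 3.74 against 0.297 to 1.77 CPM). Chst3 differed by 3.04 ± 1.10 (edgeR adjusted p = 0.111) and Ust by 1.68 ± 0.76 (edgeR adjusted p = 0.209). In a fit of all 22 libraries both passed, Chst3 with 3.26 (edgeR adjusted p = 0.0193) and Ust with 1.83 (edgeR adjusted p = 0.0422). Ust was higher in HA IP than in flow-through in 1 of 4 uninjured, 3 of 4 WT SCI and 3 of 3 STAT3-CKO SCI animals.

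**Figure D4:**
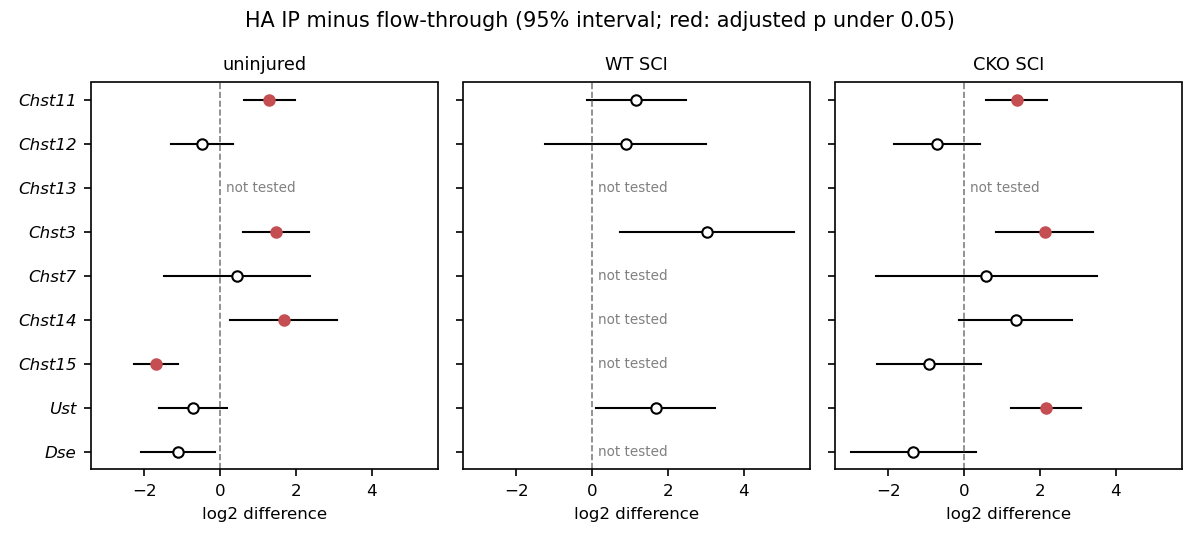
Log2 difference between HA IP and flow-through (horizontal axis; positive values are higher in HA IP) for the 9 genes in uninjured, WT SCI and STAT3-CKO SCI cord. Points are edgeR estimates, lines 95% intervals and red points edgeR adjusted p under 0.05; the Ust point lies at −0.71 in uninjured and at 2.16 in STAT3-CKO SCI cord.

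The difference between these fractions was itself compared between conditions. The injury difference of Ust in WT cord was larger in HA IP than in flow-through by 2.61 ± 0.77 on the log2 scale (edgeR adjusted p = 0.0452), the only call among 8 members tested, in a fit that called 4.71% of 15142 genes and 2.67% higher, and in which the median over all genes was 0.26. With the animal as a block it was 2.38 (edgeR adjusted p = 0.0355). The call was lost with RLE scaling (2.40, edgeR adjusted p = 0.0703), without the ribosomal rows (2.47, 0.0564) and in 10 of 11 fits that left out 1 animal, and without WT SCI animal 9843 it was 3.92 (edgeR adjusted p = 0.00414). The same term was positive and called for 6 of 6 myelin genes, and negative and called for 5 of 8 astrocyte genes, whose part in the Ust value was not tested. For the genotype term 0.0264% of 15142 genes were called and no member (by edgeR, with 0 at an unadjusted p under 0.05, or by DESeq2), Ust with 0.41 (interval −1.32 to 2.15).

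Summed by role, the 4-O genes made up a smaller share of the family's HA IP transcripts in some injured animals, while the sum itself was larger in all of them. The share was taken of the summed CPM per kb of the 8 sulfotransferases and is a description of transcripts, not of sulfate on chains. The 4-O genes made up 69.6%, 67.4%, 71.8% and 68.5% in uninjured animals 42, 79, 65 and 154, and 26.0%, 76.1%, 63.6% and 27.5% in WT SCI animals 9935, 9874, 9843 and 9596. Animals 9935 and 9596 fell far below the uninjured range while 9874 lay above it. In STAT3-CKO SCI animals 186, 531 and 270 the share was 25.1%, 34.7% and 51.0%, below every uninjured animal. The sum over the 8 genes ran from 3.73 to 4.41 CPM per kb without injury. It ran from 6.48 to 14.3 in injured wild type and from 7.72 to 13.0 with STAT3-CKO. A smaller share is therefore not always a lower level. In WT SCI animal 9596, with 27.5% of a sum of 6.48, the summed 4-O level was below that of every uninjured animal. In the other animals with a smaller share it was not. Chst12 read below its uninjured range in WT SCI animals 9935 and 9596 and STAT3-CKO animals 186 and 531. Neither Chst11 nor Chst12 was called lower in either injured group, which does not show an unchanged level.

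The rest went to different genes in different animals. The 6-O share was 39.8% in WT SCI animal 9935 and 5.83% to 15.4% in the other 10 animals. The Ust share was 32.6%, 13.3%, 13.3% and 52.2% in WT SCI animals 9935, 9874, 9843 and 9596 and 23.9% to 31.5% in STAT3-CKO SCI, against 9.92% to 17.5% in uninjured animals. So 2 of the 4 WT SCI animals lay within the uninjured range. Chst14 took 33.4%, 16.0% and 6.59% in STAT3-CKO animals 186, 531 and 270, the last within the uninjured range of 3.34% to 7.42%. The ratio of 4-O to 6-O counts (Chst11, Chst12 and Chst13 over Chst3 and Chst7) ran from 4.50 to 9.16 in uninjured HA IP. STAT3-CKO animals stood below that range at 1.94 to 2.43, and WT SCI animals spanned both at 0.542 to 11.4.

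**Figure D5:**
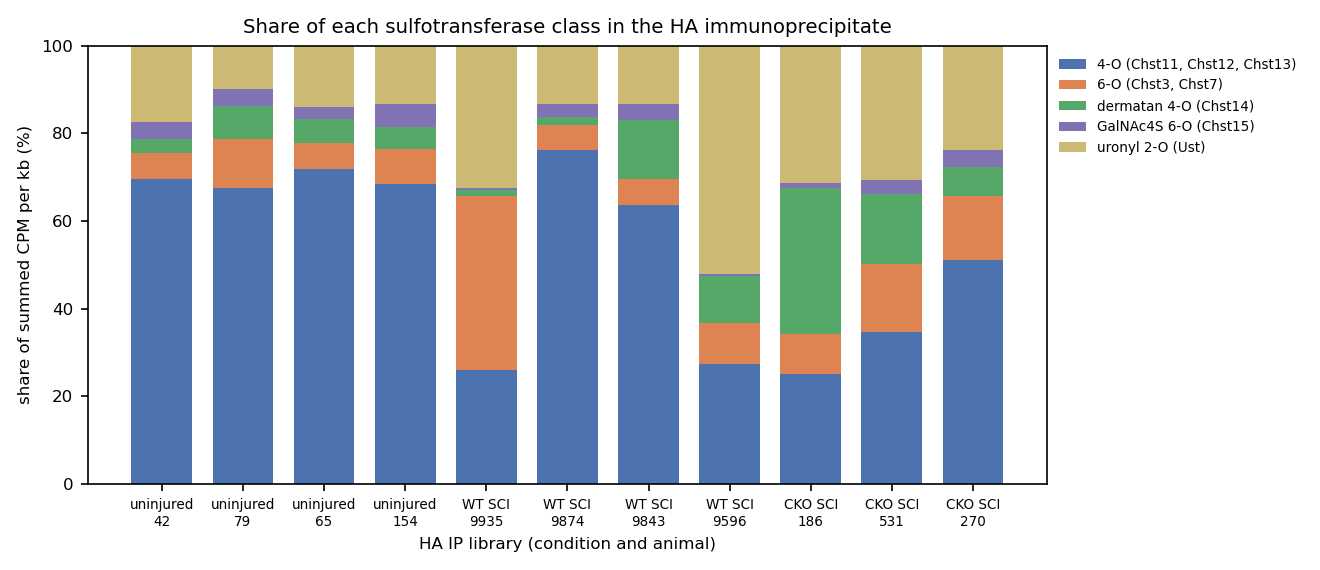
Share of each sulfotransferase class in the summed CPM per kb of the 8 sulfotransferases (vertical axis, percent), 1 bar per HA IP library. The 4-O part covers 67.4% to 71.8% of every uninjured bar, 26.0% to 76.1% of the WT SCI bars and 25.1% to 51.0% of the STAT3-CKO SCI bars.

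Genes called among the enzymes that build the chain and supply the sulfate went in both directions after WT injury in HA IP. Over all 14764 genes tested 26.7% were called in this comparison and 15.8% higher. The linkage and sulfate donor lists were near or below that share. Of 6 polymerising enzymes 3 were higher and 1 lower, with a median of 1.25 (log2). Chpf, the chondroitin polymerising factor, was higher by 2.33 ± 0.38 (edgeR adjusted p = 0.000202) and Csgalnact1, which starts the chondroitin chain, lower by 1.42 ± 0.42 (24.4 ± 14.9 against 4.86 ± 0.42 CPM and 4.80 ± 3.56 against 13.3 ± 0.8 CPM, SD, n = 4 each). Of 7 enzymes of the linkage tetrasaccharide 1 was higher (B3gat3, 1.42 ± 0.43) and 1 lower (B3galt6, −3.26 ± 0.90). Of 7 genes that supply the sulfate donor PAPS 1 was lower, the PAPS synthase Papss2 (−0.72 ± 0.24, 22.6 ± 3.0 against 37.3 ± 5.1 CPM), and the other epimerase gene, Dsel, differed by −0.25 ± 0.77.

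Sulfotransferases of other chains were also called in both directions, beside 26.7% of all genes called. Of the 5 tested Chst genes that act on keratan sulfate, HNK-1 or N-glycans, Chst2 was higher (1.39 ± 0.23, edgeR adjusted p = 0.00025) and Chst10, the HNK-1 sulfotransferase, lower (−3.46 ± 0.55, edgeR adjusted p = 0.000137). Of 18 heparan sulfate modifying enzymes 2 were higher and 2 lower, which is below that share, with Ndst1 at 1.82 ± 0.27 and Ndst4 at −3.92 ± 0.90. Both Chst2 (1.12 ± 0.25) and Chst10 (−1.75 ± 0.53) were also called in STAT3-CKO SCI against uninjured.

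Genes of breakdown and of the core proteins were called more in one direction, beside 15.8% of all genes called higher in WT SCI HA IP. Of 12 breakdown genes 5 were higher and none lower in WT SCI HA IP (median 0.57), among them Hexa (2.53 ± 0.31, 56.5 ± 24.4 against 9.79 ± 1.24 CPM), a lysosomal enzyme subunit. In flow-through Hexa was higher by 5.04 ± 0.38, and in WT SCI it was lower in HA IP than in flow-through (−1.26 ± 0.36), beside 7 of 7 tested microglia and macrophage genes that were lower there. Of 9 core protein genes 2 were lower and 5 higher in WT SCI HA IP, the higher ones including Bgn (biglycan, 2.28 ± 0.30) and Cspg4 (the NG2 proteoglycan, 2.31 ± 0.32). Cspg4 is also in the list of oligodendrocyte precursor markers and Dcn in that of fibroblasts and pericytes, so these counts share genes. Of 4 receptor genes, Ptprs, which binds chondroitin sulfate, was higher (0.96 ± 0.26, edgeR adjusted p = 0.0115).

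Between the injured groups the only pathway genes called in HA IP were 2 of the 9 core proteins, both higher in STAT3-CKO SCI. They were the lecticans Ncan (2.38 ± 0.32) and Bcan (1.43 ± 0.31, edgeR adjusted p = 0.0306, 189 ± 77 against 69.9 ± 22.5 CPM). This comparison called 171 genes, or 1.16%, but 36 with only the 2 groups in the fit and 39 to 343 without 1 animal. Depth differed between these groups too, and its part was not tested. The alternative fits were recorded for the 9 members only, not for Ncan and Bcan. Chpf was the polymerising gene with the smallest p (−1.49 ± 0.41, edgeR adjusted p = 0.0831). Against uninjured cord, STAT3-CKO SCI HA IP had 6 of 9 core protein genes and 5 of 12 breakdown genes higher and none lower in either list. Of polymerising, linkage and PAPS genes 0 of 6, 0 of 7 and 0 of 7 were called. That comparison called 9.78% of all genes and 7.70% higher, so 0 calls in lists this short are near that share.

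Across the 22 libraries, the gene whose log2 CPM tracked Ust most closely among 3920 genes compared was Capn5 (Pearson r = 0.94), followed by Psmd13 and Rnf20. For Dse it was Gla, the lysosomal alpha-galactosidase (0.93), for Chst11 Ptpn11 (0.91), for Chst15 Rere (0.89), for Chst14 H2-K1, a class I major histocompatibility gene (0.83), and for Chst3 Tdrd7 (0.82). For Chst12 the highest value was 0.79 (Esd). These coefficients describe libraries that share animals, fraction, injury state and depth, all of which enter them.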

How the data were processed

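RNA of 11 mice was measured as an HA immunoprecipitate and a flow-through each. Per the labels' protocols, 5 ng of RNA was amplified to cDNA and 300 ng of cDNA entered library construction with 10 PCR cycles, so intervals cover counting error only as far as reads are independent molecules. The authors deposited raw read counts per gene in 5 tables, and the 22 columns used here held the same counts wherever they recur; 124 per-sample columns with no matching label were not used. The submitters' processing notes name CASAVA 1.8.2, edgeR and mm10, while the aligner, annotation and strand setting were not given in the sources used here. Of 27 rows with a date in place of a symbol, 25 could be given one.

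Groups followed the labels. The HA IP libraries and the flow-through libraries were fitted separately, the 2 fractions of each condition together, and all 22 libraries for the differences of differences. The test was edgeR 4.0.16 (quasi-likelihood, filterByExpr, TMM) in R 4.3.3, with Benjamini-Hochberg adjustment over all genes tested and a threshold of 0.05; it was tested on simulated data. CPM uses the TMM-scaled library size, and 3 counts served as the limit where a count is 0. No 2 replicates were alike within sampling noise (lowest chi-square per degree of freedom 4.68). Both fractions of an animal deviated together (r of 0.225 to 0.768 over log2 CPM of genes with a mean of at least 1 CPM), and the animal number in the labels pairs them, so the animal was used as a block in an alternative fit. The other alternatives were RLE scaling, no filter, DESeq2 1.42.0, other sets of libraries, no ribosomal rows, equal depth and leaving out each animal. Named were all 9 members, the 2 genes with the smallest p per pathway list and comparison, and the 3 genes with the most similar log2 CPM per member, and some of the genes this rule names are not reported here. The members and lists were chosen with earlier results of these data known.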

Additional observations from a re-analysis of the deposited data

Results flagged for a closer look

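Of 31 groups of 4 libraries tested for a stray sample, 4 held one whose gap to the others exceeded Dixon's 95% limit, and chance gives about 1 in 20. In HA IP of WT SCI, animal 9935 stood at 31.28 CPM for Chst3 while the other 3 ranged from 1.046 to 5.43, and this is the library with the fewest counts outside the ribosomal rows. In the same group animal 9843 stood at 0.8718 CPM for Chst7, from 5 counts, against 0 to 0.0686. In WT SCI flow-through, animal 9596 had 0 counts of Chst3 while the other 3 stood at 1.971 to 2.323 CPM, from 1 to 3 counts. In uninjured flow-through, animal 42 stood at 10.37 CPM for Ust, from 652 counts in the deepest flow-through library, against 2.691 to 3.649.

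The injury difference of Ust was larger in HA IP than in flow-through by 2.614 on the log2 scale, a difference between fractions that passed its own test (edgeR adjusted p = 0.0452) with 0, 4, 15 and 6 counts of Ust in the WT SCI flow-through libraries.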

How the results depend on the processing

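Of 1125 results for single members under the alternatives, 1019 kept their direction and their side of the threshold, 38 lost and 22 gained a call, and 46 changed sign, none of them a called value in the text; the cause was not tested. The Ust calls of both injured groups in HA IP against uninjured cord held in every alternative run. Members called in STAT3-CKO SCI against uninjured HA IP numbered 2, but 4 with DESeq2 and with only the 2 groups in the fit and 1 at equal depth, where only 4 were tested. In flow-through WT SCI against uninjured gave 1, but 2 with no filter or DESeq2 and 0 with only the 2 groups (Dse was then not tested), and STAT3-CKO SCI against uninjured gave 1, but 2 with no filter. With all 22 libraries in 1 fit, members called between fractions went from 4 to 2 in uninjured, from 0 to 2 in WT SCI (1 with DESeq2) and from 3 to 1 in STAT3-CKO SCI cord. The Ust difference of differences went from 1 call to 0 with RLE scaling and without the ribosomal rows.

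Leaving out 1 animal gave 1 to 4 members called for both injured groups against uninjured in HA IP, 1 to 2 for WT SCI and 0 to 1 for STAT3-CKO SCI in flow-through, 2 to 5 between fractions in uninjured and 0 to 3 in STAT3-CKO SCI cord, and 0 to 1 for the injury difference of differences. The animal as a replicate block added Dse in uninjured cord (−1.08, edgeR adjusted p = 0.0428) and changed no other member's call, and the paired Ust difference of differences was 2.38 (edgeR adjusted p = 0.0355).

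Signs turned only among differences that were not called. Chst12 turned in STAT3-CKO SCI against uninjured HA IP at equal depth (0.0028), and in WT SCI against uninjured flow-through with RLE scaling (−0.0463), no filter (−0.0277), DESeq2 (−0.0299) and only the 2 groups (−0.0111). Chst11 turned between injured groups in flow-through with no filter (0.0093), and in the injury difference of differences with RLE scaling (−0.1273), DESeq2 (−0.1489), no ribosomal rows (−0.077) and the paired replicate block (−0.118).

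With 1 animal left out, WT SCI minus uninjured in HA IP spanned −2.08 to 0.99 for Chst7 and −0.25 to 0.83 for Chst15. STAT3-CKO SCI minus WT SCI in HA IP spanned −0.84 to 1.06 for Chst3, −0.44 to 3.30 for Chst7, −0.18 to 0.90 for Chst15, −0.10 to 0.43 for Ust and −0.27 to 0.61 for Dse, and STAT3-CKO SCI minus uninjured −0.48 to 0.11 for Chst12. In flow-through, WT SCI minus uninjured spanned −0.97 to 0.56 for Chst12 and −1.27 to 0.45 for Ust. STAT3-CKO SCI minus WT SCI there spanned −0.064 to 1.16 for Chst3, −0.35 to 0.38 for Chst11, −0.36 to 1.16 for Chst12, −0.59 to 0.84 for Ust and −1.10 to 0.0036 for Dse. STAT3-CKO SCI minus uninjured spanned −0.14 to 0.46 for Chst12, −0.50 to 0.25 for Chst15 and −0.63 to 0.18 for Ust. The injury difference of differences spanned −0.19 to 0.61 for Chst11, and the genotype one −1.90 to 0.33 for Chst3, −0.39 to 0.42 for Chst11 and −0.89 to 0.93 for Ust.

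Counts of all genes called moved by over 1.5 times as follows. Between injured groups in HA IP 171 became 903 with DESeq2, 36 with only the 2 groups and 39 to 343 without 1 animal, and in flow-through 15 became 131 with no filter, 205 with DESeq2, 4 with only the 2 groups and 2 to 29 without 1 animal. For STAT3-CKO SCI against uninjured HA IP 1444 became 2239 with DESeq2, 3585 with only the 2 groups, 951 at equal depth and 848 to 1905 without 1 animal, and in flow-through 1769 became 2751 with only the 2 groups. Between fractions, 7250 in uninjured cord became 3369 with all 22 libraries, 529 in WT SCI became 936 with DESeq2, 1706 with all 22 libraries, 1096 with the block and 166 to 292 without 1 animal, and 1496 in STAT3-CKO SCI became 3105 with the block and 292 to 1486 without 1 animal. For the injury difference of differences 713 became 1189 with DESeq2, 1934 with the block and 320 to 866 without 1 animal, and for the genotype one 4 became 1 with RLE scaling, 13 with DESeq2, 31 with the block and 0 to 6 without 1 animal.

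Depth limits the members most in WT SCI flow-through. At equal depth (91626 counts a library outside the ribosomal rows) no member passed the filter in flow-through, between fractions in WT SCI or over all 22 libraries, so those fits gave no value.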
